A study of Mus musculus with 21 samples.

Results

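Zp1, Zp2 and Zp3 encode the glycoproteins of the mouse zona pellucida, and their transcripts were followed in poly(A) RNA of oocytes from mice with conditional or constitutive deletion of Kif11, the gene of a spindle motor. These 3 genes were taken by name from a count table of 54232 genes, of which 54079 had a symbol in the reference, and all 3 passed the filter on low counts. The study has 21 libraries of 3 fully grown oocytes at the germinal vesicle stage, taken per its methods from hormone-primed females of 3 to 4 months on a C57BL/6 background. All groups carry a floxed Kif11 allele (fl). They are wt/fl (4 libraries), wt/fl with Spo11-Cre (5), fl/del with a constitutively deleted second allele (4), fl/del with Spo11-Cre (4), fl/fl with Gdf9-Cre (2) and fl/fl with Zp3-Cre (2). Spo11-Cre is a driver active in meiotic germ cells from early prophase, and the paper names Gdf9-Cre and Zp3-Cre as oocyte-specific drivers. The del allele was derived from offspring in which the floxed allele had been recombined. A mouse gave 1 or 2 libraries, and the library names of the first 4 groups share 9 prefixes, so p-values over libraries measure the spread between libraries, of which some came from the same animal. In these names the part after the prefix begins with A in the groups without Cre and with B or C in those with Spo11-Cre. What the letter stands for is not given, so it cannot be told apart from Spo11-Cre. The methods state a total of 17 libraries without naming their groups, and the first 4 groups together hold 17. No Cre-free fl/fl libraries were analysed here, and the fl/fl groups were compared with wt/fl, so the driver, the homozygous floxed allele and the set of libraries cannot be told apart.

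The zona pellucida is the extracellular coat that a growing oocyte secretes around itself. ZP2 and ZP3 assemble into long filaments that ZP1 cross-links. Sperm bind the coat, and after fertilization ZP2 is cleaved by ovastacin, the product of Astl, which is released from cortical granules. Transcription of these genes is restricted to oocytes and depends on FIGLA, a basic helix-loop-helix factor that binds E-boxes (the hexamer CANNTG) in their promoters. Their transcripts accumulate during oocyte growth, which is why the Zp3 promoter is a widely used driver of Cre in oocytes.

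In GRCm38, Zp1 (ENSMUSG00000024734) lies at chr19:10914287-10920632 on the minus strand, with 12 exons in its principal transcript. It is on the chromosome of Kif11, the floxed gene, 26455770 bp from it. Zp2 (ENSMUSG00000030911) lies at chr7:120126772-120145291 on the minus strand with 18 exons, and Zp3 (ENSMUSG00000004948) at chr5:135980099-135988624 on the plus strand with 8 exons. No annotated gene overlaps any of the 3, so no count was shared with a neighbour.

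The promoter of the endogenous Zp3 gene is shown because a Zp3 promoter also drives a Cre of the study. The window is chr5:135979855-135980154 of GRCm38.p6 on the plus strand, from RefSeq, 250 bases before to 50 after the start, and capitals mark the matches to CANNTG, which reads the same on both strands.
Zp3 promoter: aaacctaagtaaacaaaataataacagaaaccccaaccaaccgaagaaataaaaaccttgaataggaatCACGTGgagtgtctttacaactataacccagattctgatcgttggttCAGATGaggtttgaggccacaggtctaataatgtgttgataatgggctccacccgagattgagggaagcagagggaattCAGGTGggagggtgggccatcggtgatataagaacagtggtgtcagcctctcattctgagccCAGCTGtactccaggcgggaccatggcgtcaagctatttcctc
It holds 4 matches, beginning at positions -181, -134, -55 and +8 from the transcription start, and the first of them is CACGTG. Of 32851 promoter windows of this length, 72.3% hold at least 1 match and 6.49% hold 4 or more. TATAAA, searched on both strands, and TAATTA, also a palindrome, have 0 matches in the window and are held by 13.6% and 5.29% of the windows. These are matches of letters, not sites of binding. The Zp3 sequence inside the transgene was not analysed here.

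Library totals ran from 7205010 to 18454549 counts, with 12729969 to 14283549 in wt/fl, 9192854 to 10759741 in fl/fl Gdf9-Cre and 7801470 to 8188483 in fl/fl Zp3-Cre. Kif11, the targeted gene, averaged 34.5 ± 8.46 CPM (counts scaled to a library total of 1000000; SD) in wt/fl and 11.9 ± 3.06 in fl/del. With Spo11-Cre these means were 24.6 ± 5.04 for wt/fl and 1.78 ± 0.685 for fl/del. The Gdf9-Cre and Zp3-Cre groups averaged 5.003 ± 0.153 and 6.11 ± 2.60 CPM. A list of 10 oocyte markers summed to 11614 to 16775 CPM in the 21 libraries. A list of 12 follicle cell markers summed to 71.8 to 125.6 CPM and was led by Cyp19a1 in all 21. Nr5a2 (21.1 to 44.8 CPM) and Kitl (1.74 to 7.42 CPM) were also read in all 21. Fshr and Cyp11a1 were at 0 in 2 libraries each, Has2 in 11, and Inha and Inhba in 12 each. Foxl2 and Ptx3 were at 0 in all 21, Amhr2 in 20 and Amh in 18.

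Transcripts of the 3 genes together made up 0.617% to 1.08% of all counts in a library. Per length, Zp3 was the most abundant, Zp2 was next and Zp1 was the least abundant in each of the 21 libraries. In the authors' TPM (transcripts of a gene per 1000000 transcripts), Zp3 ranged from 5238 to 8367 and ranked 7th to 13th among all genes, Zp2 from 2123 to 4802 (rank 19 to 47) and Zp1 from 921.1 to 1831 (rank 69 to 154). The Zp3 to Zp2 ratio of TPM was 1.92 ± 0.305, the Zp2 to Zp1 ratio 2.84 ± 0.448 and the Zp3 to Zp1 ratio 5.35 ± 0.655 (SD, n = 21). The lengths behind these TPM equal the union of all annotated exons, which for Zp2 is 2724 bases, against 2221 in its principal transcript. With principal transcript lengths the Zp3 to Zp2 ratio was 1.57 ± 0.249, and the order still held in all 21 libraries.

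Zp1, the cross-linking component, was read at 1123, 1279, 1012 and 1461 CPM in the wt/fl libraries and at 947, 886, 1119, 1011 and 922.3 in wt/fl Spo11-Cre. The fl/del libraries had 1214, 1189, 1100.2 and 1199 CPM, and those with Spo11-Cre added had 1197, 889, 1086 and 1009.7. The Gdf9-Cre libraries had 959 and 781 CPM, and the Zp3-Cre libraries 852 and 1139.8. The lowest level of all was in a Gdf9-Cre library, and both libraries of that group lay below all 4 of wt/fl, whereas the other groups overlapped wt/fl. Group means, from the highest, were 1219 ± 195 in wt/fl, 1176 ± 51.4 in fl/del, 1045 ± 129 in fl/del Spo11-Cre, 996 ± 203 in fl/fl Zp3-Cre, 977 ± 91.4 in wt/fl Spo11-Cre and 870.1 ± 126 in fl/fl Gdf9-Cre. Neighbours in this order differed by 0.0922 to 1.01 times the larger of their SDs, so only fl/del and fl/del Spo11-Cre, at the upper end of that range, were as far apart as their spread.

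Zp2, the component cleaved after fertilization, was the most variable of the 3. It was at 2949, 4224, 3482 and 4836 CPM in wt/fl and at 3534, 4057, 5114, 4427 and 4438 in wt/fl Spo11-Cre. The fl/del libraries had 4295, 4830.2, 4574 and 4504 CPM, and those with Spo11-Cre added had 4662, 3680.4, 4723 and 3342. Libraries of the fl/del group without Cre were the closest to each other, within 1.12-fold, and the wt/fl libraries spread over 1.64-fold. Zp2 had 4508 and 3059 CPM in the Gdf9-Cre libraries. The Zp3-Cre libraries had 2418 and 5193 CPM, the lowest and the highest of the 21 libraries in 1 group. Group means ran from 4551 ± 221 in fl/del through 4314 ± 579 for wt/fl with Spo11-Cre, 4102 ± 696 for fl/del with Spo11-Cre, 3873 ± 828 in wt/fl without Cre and 3805 ± 1962 in fl/fl Zp3-Cre to 3783 ± 1024 in fl/fl Gdf9-Cre. No neighbours in this order were further apart than 0.409 times the larger SD.

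Zp3, the partner of ZP2 in the filaments, was the steadiest. It was at 3468, 4317, 3436 and 4456 CPM in wt/fl and at 3479, 3814, 4065, 3859 and 3589.9 in wt/fl Spo11-Cre. It was at 3567, 3692, 3744 and 4017 CPM in fl/del and at 4256, 3775, 4077 and 3909 in fl/del Spo11-Cre. These 17 libraries overlapped group by group. In fl/fl Gdf9-Cre Zp3 was at 3724 and 3452 CPM, inside the wt/fl range, and in fl/fl Zp3-Cre at 2897 and 3336, the lowest levels in the study and below every library of wt/fl and of Gdf9-Cre. Group means were 4004 ± 208 for fl/del with Spo11-Cre, 3919 ± 543 for wt/fl, 3761 ± 231 for wt/fl with Spo11-Cre, 3755 ± 190 for fl/del, 3588 ± 193 in fl/fl Gdf9-Cre and 3117 ± 310 in fl/fl Zp3-Cre. The step between the last 2 groups was 1.52 times the larger SD, and the other neighbours differed by at most 0.866 times.

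**Figure D1:**
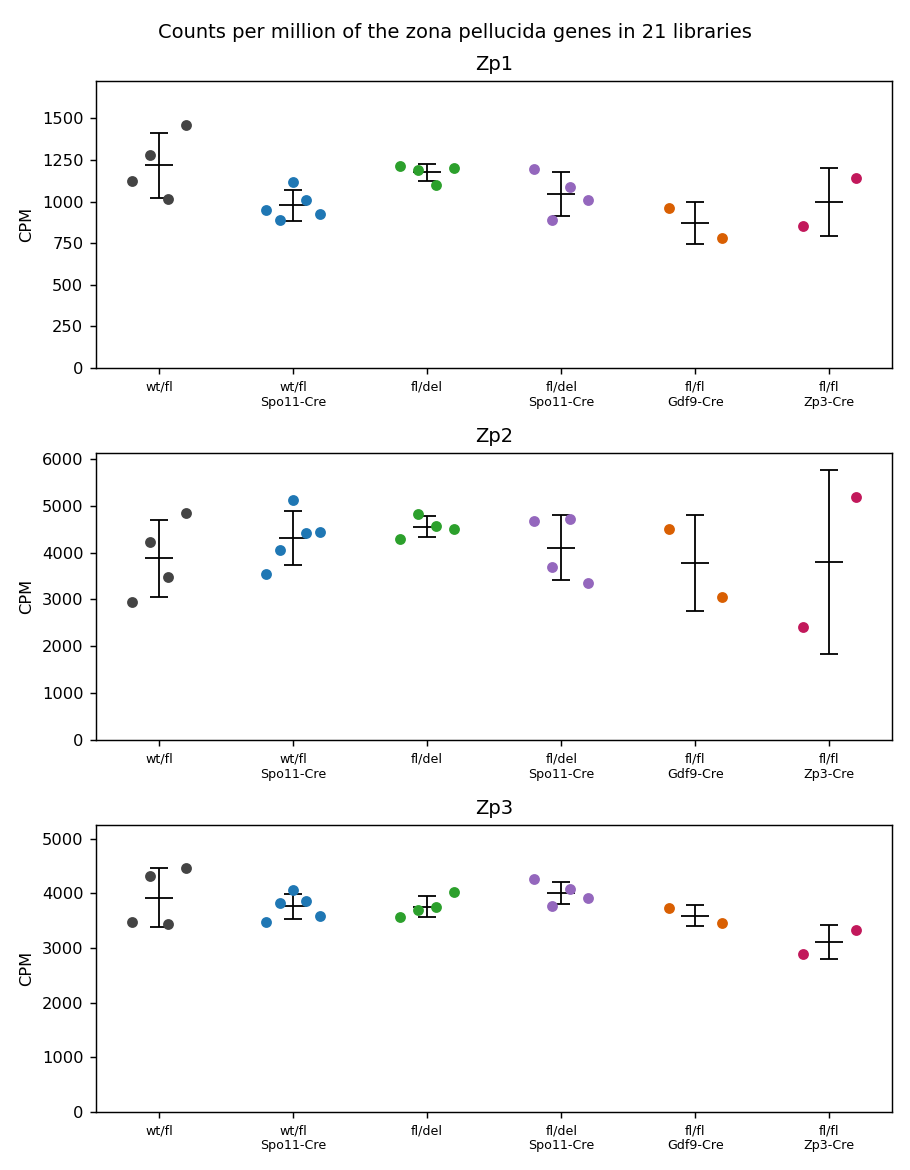
CPM (vertical axes, from 0) of Zp1, Zp2 and Zp3 in each library (points), by group (horizontal axis), with group means and SDs as black bars. Zp2 at 2418 and 5193 CPM spans the whole range within the fl/fl Zp3-Cre group, while Zp3 in that group, at 2897 and 3336 CPM, lies below all other libraries.

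Levels were then compared with wt/fl by edgeR's quasi-likelihood test over all genes, with p-values adjusted by the Benjamini-Hochberg method and a call at an adjusted p under 0.05. The 4 wt/fl libraries are shared by the 5 comparisons with wt/fl, so these are not independent. The wt/fl Spo11-Cre group was compared first. Its oocytes carry the Cre together with a floxed allele that it can recombine (mean Kif11 24.6 against 34.5 CPM). The Cre, the loss of a Kif11 copy and the letter in the library names therefore cannot be told apart. Zp1 fell to 0.815 times the wt/fl level (log2 fold change -0.30, SE 0.085, 95% confidence interval -0.47 to -0.12, adjusted p = 0.0466), although the libraries of both groups overlapped. In libraries of 3 oocytes, fewer oocytes with a transcript and less of it per oocyte cannot be told apart. Zp2 (log2 fold change 0.18, interval -0.01 to 0.37, adjusted p = 0.379) and Zp3 (-0.04, interval -0.18 to 0.11, adjusted p = 0.892) did not pass the test. Thus 1 of the 3 genes was called, against 2.19% of all 22383 genes tested in either direction and 1.33% as lower. Among the 285 genes with a mean of at least 500 CPM, the range of the zona genes, 11.9% were called. The call was near the threshold and was lost in 6 of 9 fits that each left out a library (wt/fl replicates 2 and 4, wt/fl Spo11-Cre replicates 1, 2, 4 and 5). There the fold change was -0.30 to -0.19 and the adjusted p 0.0758 to 0.338. When libraries with the same name prefix were summed, the adjusted p was 0.0481. The follicle list summed to 84.1 to 125.6 CPM in wt/fl and 71.8 to 101.6 in wt/fl Spo11-Cre, and its part in the result was not tested.

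The constitutive deletion without Cre, fl/del against wt/fl, gave no call for the 3 genes, against 0.0223% of all genes. Zp1 (log2 fold change -0.04, interval -0.22 to 0.14, adjusted p = 0.975) and Zp3 (-0.05, interval -0.20 to 0.11, adjusted p = 0.937) had intervals around 0. Zp2 stood at 0.25 (SE 0.10, interval 0.04 to 0.45), with an unadjusted p of 0.018 and an adjusted p of 0.576 in edgeR, and it was the 1 gene of the 3 with an unadjusted p under 0.05. The Zp2 value was 0.14 without wt/fl replicate 1 and 0.38 without wt/fl replicate 4. With both alleles affected, fl/del Spo11-Cre against wt/fl, again none of the 3 was called, against 0.197% of all genes. There Zp1 stood at -0.23 (SE 0.09, interval -0.41 to -0.05, unadjusted p = 0.0151, adjusted p = 0.388), Zp2 at 0.08 (interval -0.12 to 0.28, adjusted p = 0.867) and Zp3 at 0.03 (interval -0.13 to 0.18, adjusted p = 0.967). The Zp1 value was -0.12 without wt/fl replicate 4. The intervals leave room for a change of Zp3 of no more than 0.20 on the log2 scale in any of the 3 comparisons, while mean Kif11 ranged from 34.5 to 1.78 CPM.

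Whether the groups with Spo11-Cre differed from those without by a different amount where the del allele was present was tested as an interaction. None of the 3 genes was called, against 0.103% of all genes (14 higher and 9 lower, or 32 and 8 with total counts as library sizes). The interaction was 0.11 for Zp1 (interval -0.14 to 0.35, adjusted p = 0.837), -0.35 for Zp2 (SE 0.14, interval -0.63 to -0.07, unadjusted p = 0.0161, adjusted p = 0.348) and 0.11 for Zp3 (interval -0.10 to 0.32, adjusted p = 0.773). DESeq2 likewise called 0 of the 3 genes in these 3 analyses. The Zp1 difference seen with Spo11-Cre in wt/fl was therefore not shown to differ from that in fl/del.

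The oocyte drivers were compared next. In fl/fl Gdf9-Cre Zp1 fell to 0.679 times the wt/fl level (log2 fold change -0.56, SE 0.135, interval -0.83 to -0.29, adjusted p = 0.0132). Both libraries lay below all 4 of wt/fl. Complete separation of 2 from 4 libraries has an exact permutation p of 0.133, and the share of all genes so separated was not counted. Zp2 (-0.11, interval -0.45 to 0.23, adjusted p = 0.892) and Zp3 (-0.20, interval -0.42 to 0.03, adjusted p = 0.516) did not pass. One of 3 genes was called, against 1.48% of 23225 genes in either direction and 0.939% as lower, and against 11.2% of the genes with a mean of at least 500 CPM. Of all genes, 125 were called higher and 218 lower, a split that turned to 205 and 146 with total counts as library sizes. The Zp1 call was lost without wt/fl replicate 4 (-0.46, adjusted p = 0.0868) and without fl/fl Gdf9-Cre replicate 2 (-0.41, adjusted p = 0.492).

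In fl/fl Zp3-Cre the gene called was Zp3, at 0.741 times the wt/fl level (log2 fold change -0.43, SE 0.114, interval -0.66 to -0.20, adjusted p = 0.0228). Its libraries did not overlap those of wt/fl, and here too the share of all genes so separated was not counted. Zp1 stood close to Zp3, at -0.39 (SE 0.134, interval -0.66 to -0.12, adjusted p = 0.127), but was not called. Whether the fall was particular to Zp3 was not tested. Zp2 stood at -0.11 (interval -0.45 to 0.23, adjusted p = 0.847). One of 3 genes was called, against 2.27% of all genes in either direction, 1.23% as lower, and 13.3% of those with a mean of at least 500 CPM. Here 242 genes were called higher and 286 lower, against 418 and 162 with total counts. The Zp3 call was lost without wt/fl replicate 2 (-0.39, adjusted p = 0.0887) or wt/fl replicate 4 (-0.36, adjusted p = 0.0965). Each of the 3 zona gene calls against wt/fl was thus lost without wt/fl replicate 4. That library had the highest Zp1, Zp2 and Zp3 of wt/fl (1461, 4836 and 4456 CPM). Without fl/fl Zp3-Cre replicate 1, which left 1 library in that group, the Zp3 value was -0.28. Without fl/fl Zp3-Cre replicate 2, which also left 1 library in that group, Zp1 stood at -0.66 and Zp2 at -0.82. Without replicate 1 they stood at -0.15 and 0.37, so the values for these 2 genes rest on which of the 2 libraries is kept.

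With the TMM library sizes used in these tests, abundant transcripts as a class lay lower in both fl/fl comparisons. TMM multiplies the totals by a factor, which was 1.03 to 1.10 in the fl/fl libraries and 0.977 to 1.00 in wt/fl. The medians below were not taken with total counts as library sizes. The median log2 fold change of the 285 genes with a mean of at least 500 CPM was -0.12 for Gdf9-Cre and -0.16 for Zp3-Cre, while over all genes tested it was 0.00 in both. The fl/fl libraries also had lower totals than wt/fl. The counts of the 3 genes over all exons were 1.93 to 1.96 times those in the second deposited count table in the 4 fl/fl libraries, and 1.96 to 1.98 times in the other 17. The part of these differences in the calls was not tested. With library sizes taken as total counts, Zp3 in fl/fl Zp3-Cre stood at -0.33 (adjusted p = 0.0932) and was no longer called.

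Compared with each other, which avoids the wt/fl libraries, the 2 drivers gave no call for the zona genes, against 0.891% of all genes (71 higher and 136 lower, or 94 and 118 with total counts). Zp3 was lower in fl/fl Zp3-Cre than in fl/fl Gdf9-Cre in both libraries, with a log2 difference of -0.23 that had an interval from -0.49 to 0.03 (adjusted p = 0.768). Zp1 differed by 0.17 (interval -0.13 to 0.47, adjusted p = 0.814) and Zp2 by -0.01 (interval -0.40 to 0.38, adjusted p = 1). The Zp3 difference did not pass the test. None of the 3 genes had an unadjusted p under 0.05 in edgeR, and DESeq2 called 0. The Zp2 difference was -0.73 without fl/fl Zp3-Cre replicate 2 and 0.47 without replicate 1, each from 1 library of Zp3-Cre.

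**Figure D2:**
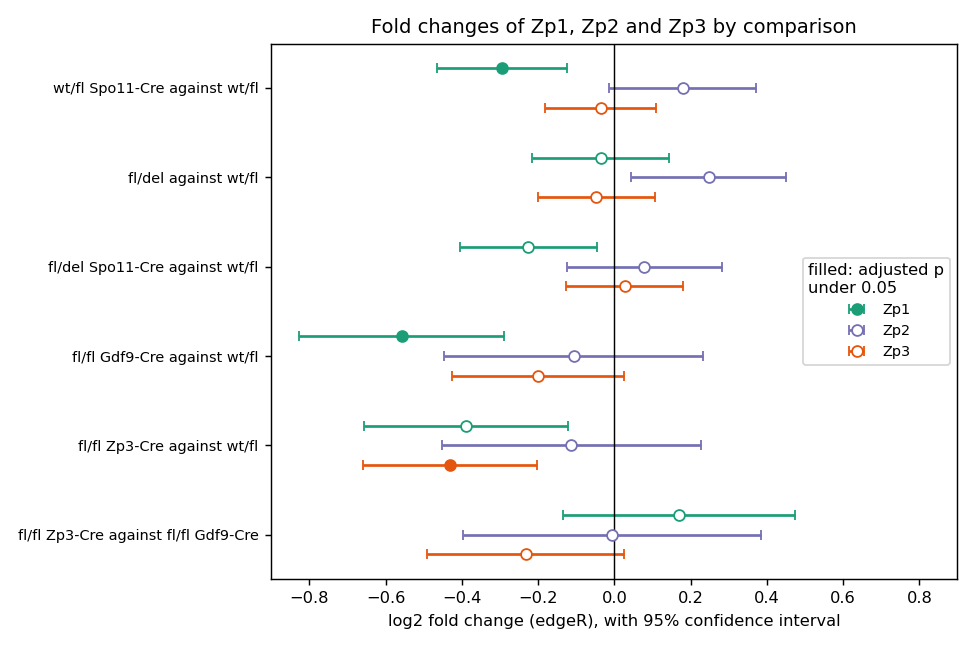
Log2 fold changes of Zp1, Zp2 and Zp3 from edgeR (horizontal axis) with 95% confidence intervals, for 6 comparisons (vertical axis). Filled points passed an adjusted p under 0.05: Zp1 at -0.30 in wt/fl Spo11-Cre and -0.56 in fl/fl Gdf9-Cre, and Zp3 at -0.43 in fl/fl Zp3-Cre, each against wt/fl.

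A ratio of 2 genes within a library does not depend on the library total, so the balance of the zona transcripts was compared that way, as a ratio of counts not corrected for length. The Zp1 to Zp3 ratio was 0.324, 0.296, 0.295 and 0.328 in the wt/fl libraries and 0.340, 0.322, 0.294 and 0.299 in fl/del. It was 0.272, 0.232, 0.275, 0.262 and 0.257 in wt/fl Spo11-Cre and 0.281, 0.235, 0.266 and 0.258 in fl/del Spo11-Cre. All 9 libraries with Spo11-Cre therefore lay between 0.232 and 0.281, and all 8 without Cre between 0.294 and 0.340, with no overlap. Averaged by name prefix, the 5 values with Spo11-Cre were 0.252 to 0.269 and the 4 without were 0.296 to 0.331. This split by Cre is also the split between A and B or C in the library names, and the 2 cannot be told apart. It was chosen after the values were seen and was not tested as such. How many other gene pairs split in this way was not counted.

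By group, the log2 Zp1 to Zp3 ratio differed from wt/fl by -0.26 in each of the groups with Spo11-Cre. The 2-sided exact permutation p was 0.0159 and 0.0286, the smallest that 5 against 4 and 4 against 4 libraries can give. The value adjusted over 12 ratio comparisons was 0.114 for both, and with these numbers of libraries no adjusted value could pass 0.05. All permutation tests of the ratios exchanged single libraries as if independent. Some of these libraries share a name prefix, and no ratio test by prefix was run. In fl/del without Cre the ratio differed from wt/fl by 0.01 (exact permutation p = 0.857). In fl/fl Gdf9-Cre the ratio was 0.258 and 0.226, below every wt/fl library (difference -0.36, exact permutation p = 0.133, the smallest possible with 2 against 4). In fl/fl Zp3-Cre it was 0.294 and 0.342, level with wt/fl (difference 0.03, exact permutation p = 0.8). The libraries of the 2 oocyte drivers did not overlap in this ratio (difference 0.39, exact permutation p = 0.333, the smallest possible with 2 against 2).

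The Zp2 to Zp3 ratio moved differently. It was 0.850, 0.978, 1.01 and 1.09 in the wt/fl libraries and 1.20, 1.31, 1.22 and 1.12 in fl/del, so that every fl/del library was above every wt/fl library (log2 difference 0.31, exact permutation p = 0.0286, adjusted 0.114). The share of gene pairs so separated was not counted for this or any other ratio comparison. In wt/fl Spo11-Cre the Zp2 to Zp3 ratio was 1.02, 1.06, 1.26, 1.15 and 1.24, overlapping wt/fl (0.22, exact permutation p = 0.0635). With Spo11-Cre added to fl/del it was 1.10, 0.975, 1.16 and 0.855 (0.05, exact permutation p = 0.629). It was 1.21 and 0.886 in fl/fl Gdf9-Cre, and 0.835 and 1.56, the lowest and the highest of the study, in fl/fl Zp3-Cre. None of the 12 ratio comparisons passed an adjusted p of 0.05. With these numbers of libraries none could, even with complete separation in every comparison, so the adjusted values cannot decide whether a ratio differed.

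**Figure D3:**
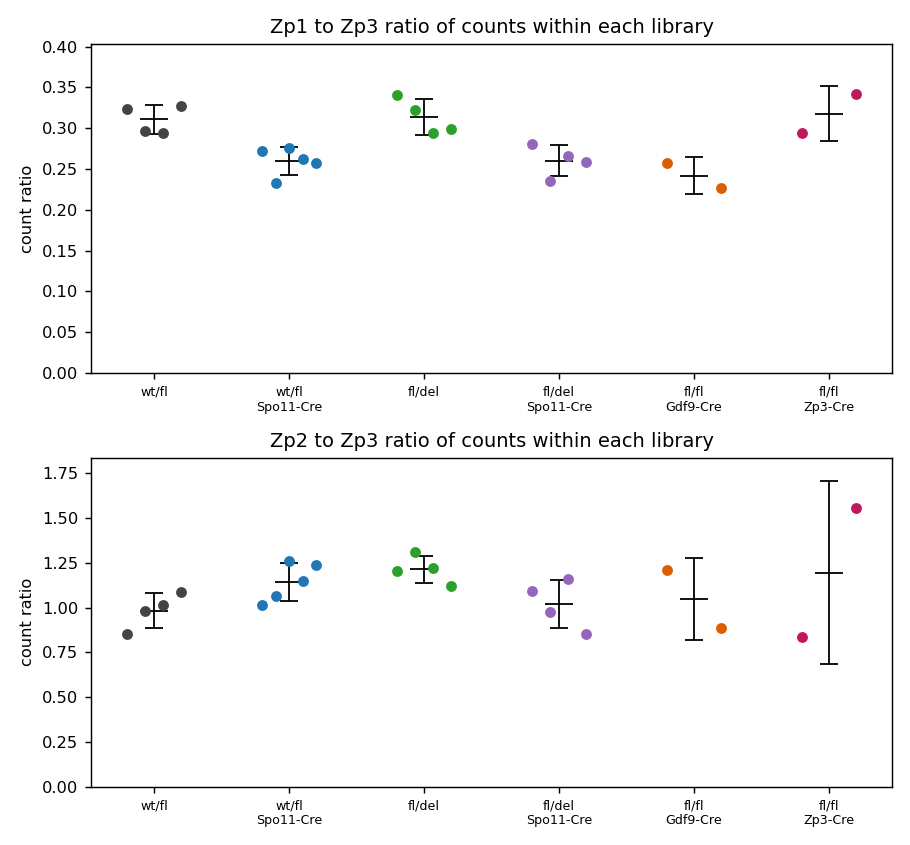
Ratio of counts within each library (vertical axes, from 0) for Zp1 to Zp3 and Zp2 to Zp3, by group (horizontal axis), with points for libraries and black bars for means and SDs. The Zp1 to Zp3 ratio is 0.232 to 0.281 in all 9 Spo11-Cre libraries and 0.294 to 0.340 in the 8 libraries without Cre.

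The genes that surround the zona genes in their known biology were described from a list of 17, all of which were tested. In wt/fl Spo11-Cre against wt/fl, 2 of the 17 fell and 1 rose, against 2.19% of all genes called in either direction and 11.9% of those with a mean of at least 500 CPM, with a median log2 fold change of -0.10 against 0.03 over all genes. Those that fell were Nobox, a homeobox regulator of oocyte genes (521 ± 54.4 against 707 ± 77.9 CPM, log2 fold change -0.42, SE 0.085, adjusted p = 0.00305, no overlap), and Zar1, a maternal mRNA-binding factor (919.9 ± 83.0 against 1169 ± 120.2 CPM, -0.32, SE 0.075, adjusted p = 0.00994). Cd9, a tetraspanin of the egg surface needed for gamete fusion, rose (208 ± 18.1 against 167 ± 20.4 CPM, 0.34, SE 0.091, adjusted p = 0.0324, no overlap). The share of all genes with no overlap was not counted. In the other 6 comparisons none of the 17 passed in edgeR, against 0.0223% to 2.27% of all genes, with 0 to 4 of them at an unadjusted p under 0.05, and their median log2 fold change was between -0.01 and 0.11. The lowest adjusted p there came from fl/fl Zp3-Cre against wt/fl. Ybx2 had 54.6 ± 22.5 against 31.2 ± 7.65 CPM (0.69, adjusted p = 0.0578). Furin had 19.2 ± 8.97 against 8.38 ± 1.92 CPM (1.07, adjusted p = 0.0733).

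Among the transcription regulators, Figla, the activator of the zona genes, was at 43.1 to 74.0 CPM in the 21 libraries and was called in no comparison. Its log2 fold change was 0.16 in wt/fl Spo11-Cre, 0.11 in fl/fl Gdf9-Cre and 0.04 in fl/fl Zp3-Cre, the 3 comparisons in which a zona gene was called. Nobox ranged from 462 to 779 CPM and Lhx8, a LIM-homeobox regulator, from 103 to 182. Sohlh1, a regulator of early follicle stages, was at 0 in 16 of 21 libraries and at most 0.544 CPM, so no fold is given for it. Tbpl2, the oocyte form of the TATA-binding protein, was at 15.1 to 27.9 CPM. Astl, the ovastacin gene whose product cuts ZP2, was at 106 to 233 CPM, with fold changes of -0.32 in wt/fl Spo11-Cre (adjusted p = 0.213) and 0.36 in fl/fl Gdf9-Cre (adjusted p = 0.392). Izumo1r, the egg receptor JUNO, was at 538 to 739 CPM, and Zp4-ps, a zona pseudogene, was read at 33.7 to 59.5 CPM in all libraries.

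**Figure D4:**
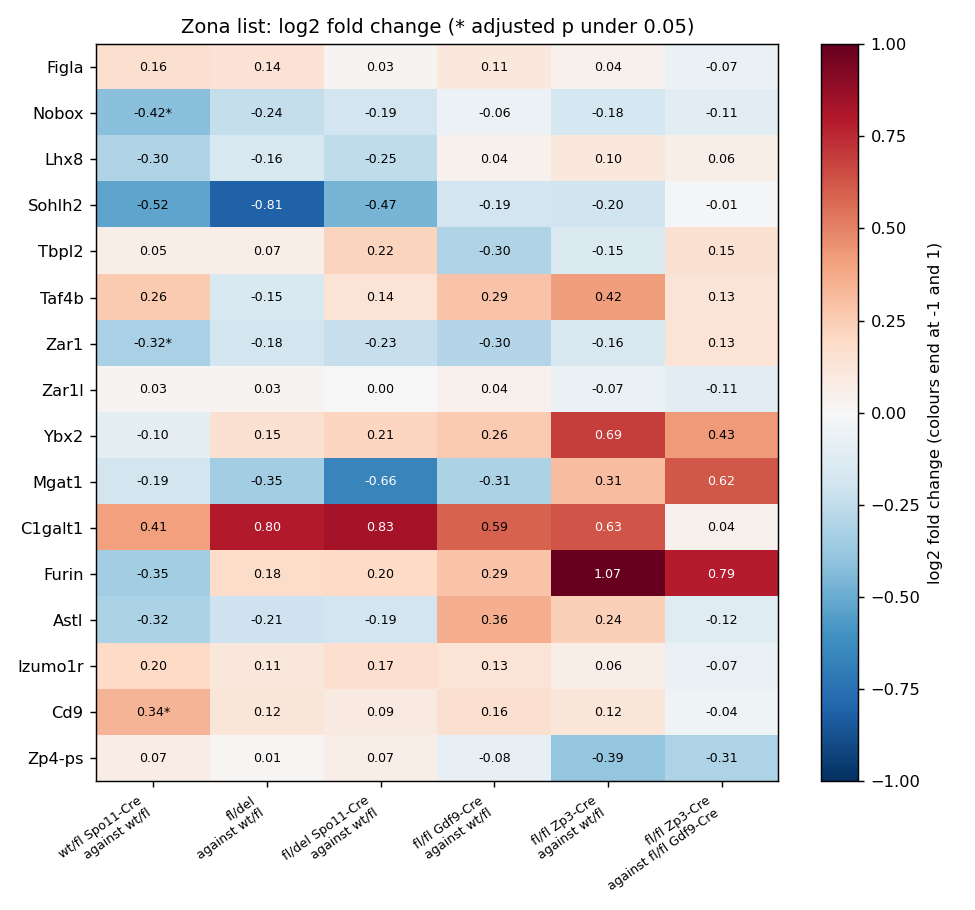
Log2 fold change (colour and number) of 16 genes of the zona list (vertical axis; Sohlh1, at 0 in 16 libraries, is left out) in 6 comparisons (horizontal axis), with an asterisk at an adjusted p under 0.05. Asterisks stand at Nobox (-0.42), Zar1 (-0.32) and Cd9 (0.34) in wt/fl Spo11-Cre against wt/fl.

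Genes with a ZP domain that are known from other tissues had lower levels than the zona genes, and 3 of the 9 listed had a median above 1 CPM. Of these 9 genes, 7 were tested and none was called by edgeR in any of the 7 comparisons, against 0.0223% to 2.27% of all genes, with at most 1 at an unadjusted p under 0.05. Tecta, of the inner ear, was at 0 in all 21 libraries and Eng, of endothelium, in 20. The highest was Dmbt1, a mucosal protein gene, at 19.9 to 37.6 CPM (7.10 to 12.9 TPM), next to at least 921.1 TPM for the zona genes.

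The 3 genes differed in how much they varied within groups. The within-group SD of log2 CPM was 0.31 for Zp2, which ranked 8 from the most variable of the 285 genes with a mean of at least 500 CPM. It was 0.18 for Zp1 (rank 49) and 0.12 for Zp3 (rank 169), and the median of these genes was 0.13. The value for Zp2 pools unlike groups. The SD of its CPM was 51.6% of the mean in the 2 fl/fl Zp3-Cre libraries and 4.85% in fl/del. In the remaining groups it was 13.4% to 27.1%. Over the 21 libraries log2 CPM correlated between Zp1 and Zp2 (Pearson r = 0.59, Spearman rho = 0.55), Zp1 and Zp3 (r = 0.60, rho = 0.46) and Zp2 and Zp3 (r = 0.63, rho = 0.45). In permutation tests the p-values adjusted over these 3 relations were 0.00492 for each r and 0.0334, 0.041 and 0.041 for rho. Without the 2 libraries farthest from the median of the first gene, r was 0.51, 0.49 and 0.36. As deviations from group means r was 0.81, 0.82 and 0.77, but over the means of the 9 name prefixes in the first 4 groups it was 0.02, 0.35 and -0.08. The libraries thus shared their deviations within groups more than prefixes did between them, and each r includes the shared library total.

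The transcripts whose pattern over the 21 libraries was most like each zona gene were found among 7754 genes with a mean of at least 10 CPM, by Pearson r of log2 normalised CPM, as a description. They were Edem2 (r = 0.93), Nrf1 (0.92), Rnf114 (0.91), Noc4l (0.90) and Surf4 (0.90) for Zp1. For Zp2 they were Nlrp14 (0.94), Nlrp5 (0.93), Tacc3 (0.89), Oog4 (0.88) and Mynn (0.87). For Zp3 they were Gps1 (0.87), Bscl2 (0.87), Ldhb (0.86), Hspa8 (0.85) and Usp33 (0.85). The 3 lists share no gene, and none of the zona genes was among the 5 closest of another.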

How the data were processed

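Poly(A) RNA of 21 libraries of 3 oocytes was amplified as full-length cDNA and sequenced as paired ends. Per the labels and methods, the authors used fastp for trimming, HISAT2 2.2.1 for alignment to GRCm38 and featureCounts 2.0.3 (Subread) for counting on Ensembl release 93. The deposited counts are whole, unnormalised read counts per gene. Whether single reads or read pairs were counted is not given in the sources used here, and the all-exon counts were a median 1.96 times those of the second table, so a count may not be an independent fragment. The deposited TPM values were computed by the authors from them, and for the 3 genes their lengths equal the exon union. The all-exon counts were used here, and a second count table, in which Kif11 was counted over exon 22 alone, served as an alternative. Columns were matched to groups by their names.

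CPM was scaled to a library total of 1000000. A gene was tested if 3 or more libraries of the fit had a count above 0. Tests were made with edgeR 4.0.16 (R 4.3.3; TMM library sizes, quasi-likelihood F test, Benjamini-Hochberg adjustment), 17 libraries in 1 fit for the Spo11-Cre background and 21 for the oocyte drivers. DESeq2 1.42.0 was an alternative. Ratios were compared by 2-sided exact permutation tests (scipy 1.17.1), adjusted over 12 comparisons, and correlations by 100000 permutations. The scripts were tested on simulated data. Likeness used log2(TMM-normalised CPM + 1). No 2 libraries of a group agreed within sampling noise (the lowest chi-square per gene was 9.46 over 30 pairs, where 1 is the noise of independent counts).

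Named were the 3 zona genes, the 5 genes most like each, list genes that passed the test, and Figla, Nobox, Lhx8, Sohlh1, Astl and Tbpl2. Other genes of the lists (Izumo1r, Zp4-ps, Ybx2, Furin, Tecta, Eng, Dmbt1) were named after their values were seen. Members and lists were chosen with earlier results of these data known. Alternatives were other library sizes, filters, tables, fits and tools, the replicate number as a block, sums by name prefix, and each library left out.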

Additional observations from a re-analysis of the deposited data

How the results depend on the processing

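Of 189 planned refits of the zona genes with all libraries, 182 kept the direction and the side of the threshold. All 36 of the ratios kept the direction, while the numbers of libraries fixed their side of the threshold in advance. Zp1 in wt/fl Spo11-Cre was not called with edgeR's own expression filter (-0.29, adjusted p = 0.0620) or with all 21 libraries in the fit (-0.29, adjusted p = 0.159). Zp3 in fl/fl Zp3-Cre was not called with total counts as library sizes (-0.33, adjusted p = 0.0932) or with only its own and the wt/fl libraries (-0.41, adjusted p = 0.192). Zp2 between the oocyte drivers was 0.0084 with total counts and 1.94e-05 in DESeq2, so its sign was not fixed. The causes were not tested.

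Counts of called genes moved more. In wt/fl Spo11-Cre 491 became 742 without a filter, 931 in DESeq2 and 252 with all 21 libraries. In fl/del 5 became 80 without a filter, 2 with edgeR's filter and 21 in DESeq2. With Spo11-Cre added to fl/del, 44 became 185 without a filter, 29 with edgeR's filter, 83 in the second count table and 158 in DESeq2. For the interaction 23 became 40 with total counts, 138 without a filter, 2 with edgeR's filter, 42 in the second table, 74 in DESeq2, 4 with all libraries and 11 with prefix sums. For Gdf9-Cre 343 became 731 in DESeq2, for Zp3-Cre 528 became 879 in DESeq2 and 204 with the compared groups alone, and between these drivers 207 became 381 and 7.

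Leaving out each library in turn changed signs mostly of values near 0. For Zp1 the log2 fold change ranged from -0.37 to -0.19 in wt/fl Spo11-Cre, from -0.11 to 0.068 in fl/del, from -0.30 to -0.12 in fl/del Spo11-Cre, from -0.70 to -0.41 in Gdf9-Cre, from -0.66 to -0.15 in Zp3-Cre and from -0.11 to 0.40 between these drivers. For Zp2 it ranged from 0.14 to 0.38 in fl/del, from -0.032 to 0.21 in fl/del Spo11-Cre, from -0.40 to 0.16 in Gdf9-Cre, from -0.82 to 0.37 in Zp3-Cre and from -0.73 to 0.47 between the drivers. For Zp3 it ranged from -0.092 to 0.036 in wt/fl Spo11-Cre, from -0.10 to 0.025 in fl/del, from -0.029 to 0.098 in fl/del Spo11-Cre and from -0.58 to -0.28 in Zp3-Cre. The log2 Zp1 to Zp3 ratio ranged from -0.027 to 0.044 in fl/del and from -0.077 to 0.14 in Zp3-Cre. The Zp2 to Zp3 ratio ranged from -0.015 to 0.13 in fl/del Spo11-Cre, from -0.14 to 0.31 in Gdf9-Cre, from -0.23 to 0.67 in Zp3-Cre and from -0.31 to 0.59 between the drivers. Counts of called genes ranged from 179 to 575 in wt/fl Spo11-Cre, 1 to 18 in fl/del, 30 to 71 in fl/del Spo11-Cre, 4 to 60 for the interaction, 99 to 407 in Gdf9-Cre, 133 to 1227 in Zp3-Cre and 127 to 398 between the drivers. Where this left a driver with 1 library, that library was taken to vary like the other groups.

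Libraries with the same replicate number share only a number. In the first 4 groups 24 same-numbered pairs had correlations of their deviations from -0.16 to 0.16, with 4 over 0.1. With the replicate block the count of called genes was 96 in fl/del, 230 in fl/del Spo11-Cre and 96 for the interaction, Zp2 in fl/del was called (0.25, adjusted p = 0.0204), and no other call for the zona genes changed. In the fl/fl groups the correlation was -0.34. With 2 libraries per group the deviations are equal and opposite, so crossing the numbers can only turn its sign. With the numbers crossed, a choice made after seeing the data, 357 genes were called between the drivers, against 304 with the numbers as given. This rise therefore cannot show whether libraries were paired.

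The zona genes had at least 6649 counts, as deposited, in every library. For the ratios, 2 libraries per oocyte driver cannot reach 0.05 in an exact permutation test.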
